A study of Homo sapiens with 6 samples.

Results

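Intermediate filaments are ropes of coiled-coil proteins that give a cell its tensile strength and run beside the microtubules and actin. Simple epithelia build them from keratins, which assemble only as pairs of a type I and a type II chain, and mesenchymal cells build them from vimentin. Nestin and synemin join vimentin as co-polymers, while the neurofilament chains and GFAP are the proteins of neurons and astroglia. Vimentin filaments are carried outward along microtubules by kinesin, and in cultured cells they draw in towards the nucleus when microtubules are lost.

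The genes described here are 10 of the 38900 Ensembl gene IDs measured, chosen as the rows whose ID carries the symbol VIM, NES, SYNM, KRT7, KRT8, KRT18, KRT80, NEFL, NEFM or GFAP. Squamous keratins were left out of the choice. They were measured by polyA RNA sequencing in hTERT RPE1, a human retinal pigment epithelial (RPE) cell line immortalised with telomerase. All cultures were held at 100% confluency for 5 days, which makes the cells quiescent, and then received fresh medium for 6 hours, with 100 nM combretastatin A4 (CA4) in 3 libraries and with 0.1% DMSO in the 3 control libraries. Combretastatin A4 binds tubulin and takes microtubules apart, and the comparison asks how transcripts respond to it in cells brought to quiescence this way. Transcripts of mitotic kinases were still present, with PLK1 at 302 to 966 and CDK1 at 148 to 548 normalized counts. All libraries come from 1 cell line, and the labels do not say whether the replicates were separate cultures, so p-values measure the spread between these libraries, which may be technical.

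Each library held between 19524936 and 22538004 reads. Values are normalized counts, in which each gene's reads were divided by 1 factor per library, so that 1 normalized count is close to 1 read. Group values are given as mean ± SD (n = 3 libraries). Of the 14 RPE markers examined, TTR and DCT were listed at 0 in every library, RLBP1, TYR, TYRP1 and LRAT reached at most 5.70 normalized counts, and RPE65 lay between 13.5 and 40.8. PMEL, SERPINF1 and MERTK reached at most 30.9, BEST1 lay between 42.5 and 99.7, and RDH5 between 148 and 165. The transcription factors MITF and OTX2 were present, at 322 or more and 226 or more normalized counts. Summed over the 14 markers the libraries held 1312 to 2037 normalized counts under DMSO and 825 to 1222 with CA4, most of the difference being MITF and OTX2, and the part of this difference in the results was not tested.

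The 4 keratin members lie close together on chromosome 12 of the GRCh38 genome, in the annotation of GENCODE release 29. KRT80 (ENSG00000167767, minus strand) spans 52168996 to 52192000, and KRT7 (ENSG00000135480, plus strand) follows at 52232520 to 52252186. KRT8 (ENSG00000170421, minus strand) spans 52897187 to 52949954 and overlaps KRT18 (ENSG00000111057, plus strand), at 52948871 to 52952901, by 525 exon bases on opposite strands. KRT18 is a type I chain lying at the edge of the type II cluster, beside KRT8, a type II chain it pairs with. VIM (ENSG00000026025) lies on chromosome 10 at 17228259 to 17237593, NES (ENSG00000132688) on chromosome 1 at 156668763 to 156677397 and SYNM (ENSG00000182253) on chromosome 15 at 99098217 to 99135593. GFAP (ENSG00000131095) lies on chromosome 17 at 44903161 to 44916937.

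Members of the family resemble each other in sequence, and the counts rest on telling their reads apart. Over the whole principal transcript of KRT80, 0.420% of the 50-base words occurred in another annotated gene on either strand. The same share was 0 for NES, 10.8% for KRT7, 27.5% for SYNM, 36.9% for KRT8, 38.2% for VIM and 47.6% for KRT18. In VIM and SYNM these words came from antisense genes, which are not analysed here. The use of strand in counting is not given, so reads of either strand may not have been told apart there. KRT8 shared words with 42 other genes and KRT18 with 45, most of them copies named as keratin pseudogenes. The largest single share of KRT18, 21.5% of its words, was with KRT8, which it overlaps on the opposite strand. The listed counts of 33 KRT8 pseudogenes added up to between 0.526% and 0.708% of KRT8 in each library, and those of 41 KRT18 pseudogenes to between 0.146% and 0.254% of KRT18.

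Vimentin transcripts dominated the 10 genes. Scaled to the length of the principal transcript, VIM stood at 49243 ± 5037 normalized counts per kilobase in DMSO, KRT8 at 6856 ± 227 and KRT18 at 5918 ± 663. KRT80 followed at 733 ± 14.1 and KRT7 at 504 ± 26.8. NES at 70.5 ± 45.8 and SYNM at 59.2 ± 4.70 did not differ beyond their spread, and the ranges of KRT8 and KRT18 overlapped. As a share of the 10 genes per length, VIM made up 77.6% ± 0.828 under DMSO and 75.02% ± 2.65 with CA4. KRT18 made up 9.33% ± 0.366 and 11.9% ± 1.82, and KRT80 1.16% ± 0.0924 and 1.57% ± 0.0777. VIM ranked between 9 and 15 among all genes of a library by normalized count.

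After CA4, KRT80 was the member whose transcript rose past the test, while vimentin and KRT8 stayed close to their control levels and KRT18 lay above them without passing. In bulk RNA such as this, fewer cells of a type and less RNA per cell cannot be told apart. Of the 10 genes, 7 averaged 10 or more normalized counts over the 6 libraries and were tested. In limma's moderated test, 1 of these 7 passed an adjusted p of 0.05, upward, where 4.94% of all 13928 tested genes passed in either direction, 2.97% upward and 1.97% downward. Without adjustment 3 of the 7 were under 0.05, against 23% of all tested genes. The 3 CA4 libraries lay apart from the 3 DMSO libraries in 3 of the 7, KRT80 and KRT18 above and SYNM below, against 27.7% of all tested genes, 14.3% above and 13.4% below. The median log2 fold change of the 7 was 0.079 and that of all tested genes -0.0082.

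**Figure D1:**
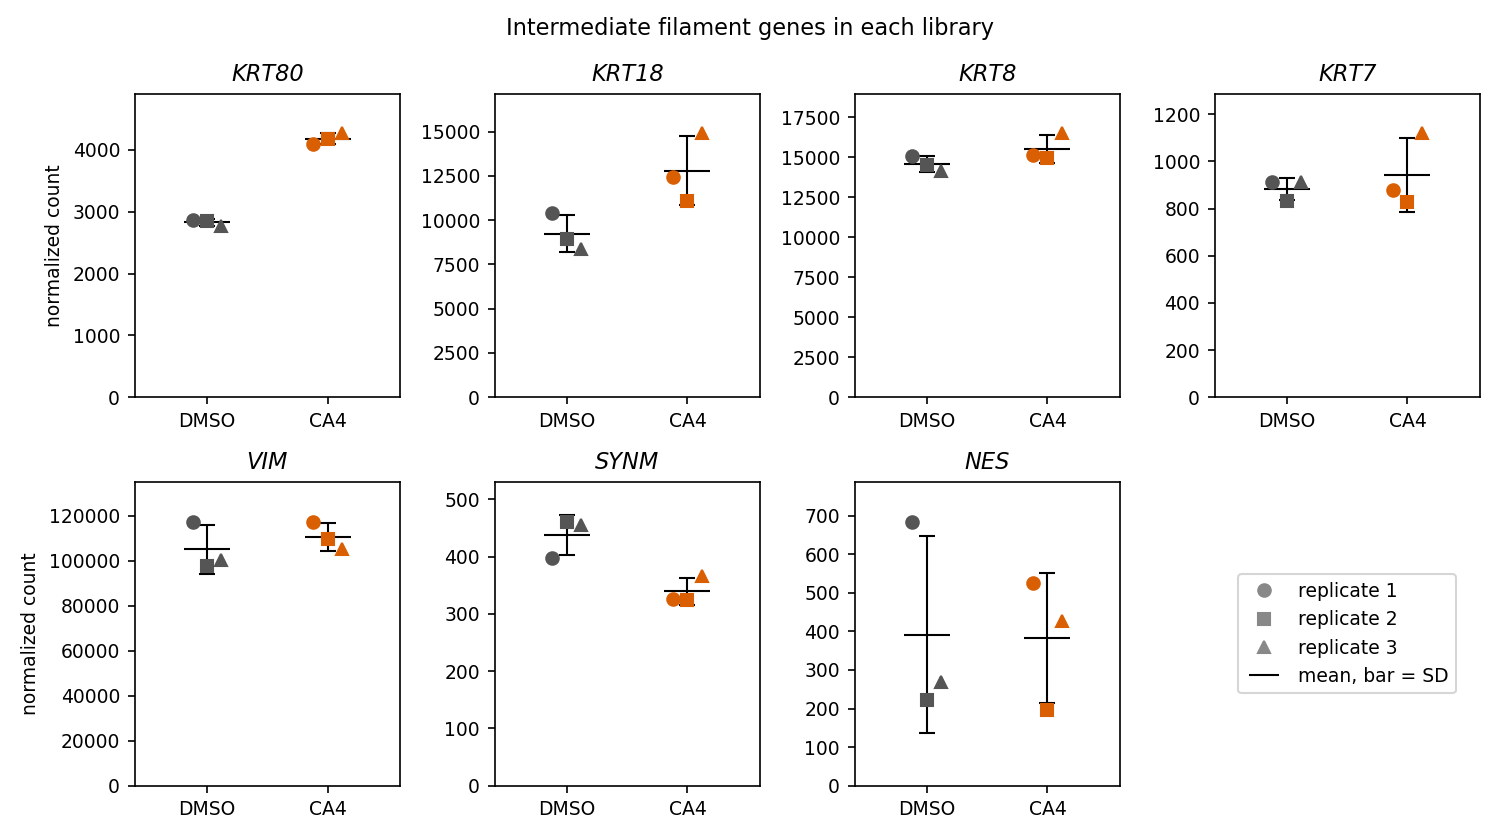
Normalized count of the 7 tested intermediate filament genes in each library (y axis, from 0), with DMSO in grey and CA4 in orange, 1 symbol per replicate number, and the mean with its SD in black. KRT80 lies between 2765 and 2867 in DMSO and between 4095 and 4271 in CA4, and NES spreads from 196 to 685 without parting the groups.

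KRT80 encodes a type II keratin that is weakly expressed in many epithelia and lies near desmosomes and in the cell cortex. Its normalized counts were 2867, 2848 and 2765 in replicates 1, 2 and 3 of DMSO, and 4095, 4178 and 4271 in those of CA4. The lowest CA4 library was far above the highest DMSO library, and the libraries within a group lay within a few percent of each other. The mean of KRT80 rose from 2827 ± 54.2 to 4181 ± 88.1, 1.48-fold on the scale fitted. Its log2 fold change was 0.56 (SE 0.068, 95% interval 0.41 to 0.72, limma adjusted p = 0.0103). It ranked 63 by p among all tested genes. Leaving out DMSO replicate 3 kept the size, at 0.55, but moved the adjusted p to 0.0527, and leaving out any other single library kept the call.

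KRT18 is a type I chain of simple epithelia and KRT8 a type II partner of it. KRT18 had 10397, 8943 and 8393 normalized counts in DMSO and 12441, 11056 and 14919 in CA4, in the order of replicates. All CA4 libraries were above all DMSO libraries, and CA4 replicate 3 stood highest. The group means were 9244 ± 1035 and 12805 ± 1957. The log2 fold change of 0.46 (SE 0.13, 95% interval 0.16 to 0.77) did not pass over all genes (limma adjusted p = 0.0849), and was 0.35 when CA4 replicate 3 was left out. DESeq2 called KRT18 higher (adjusted p = 0.0133) and edgeR did not (adjusted p = 0.0881).

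KRT8 had 15079, 14527 and 14118 normalized counts in DMSO and 15130, 14922 and 16502 with CA4. The groups overlapped, and again CA4 replicate 3 was highest. The log2 fold change of KRT8 was 0.09 (SE 0.075, 95% interval -0.085 to 0.26, limma adjusted p = 0.526), an interval that leaves out a change as large as that of KRT80.

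Since the 2 chains pair, their ratio within each library was compared, a measure that does not depend on library scaling. The ratio of KRT8 to KRT18 normalized counts was 1.45, 1.62 and 1.68 in DMSO and 1.22, 1.35 and 1.11 in CA4. Every CA4 library had a lower ratio than every DMSO library, and by count KRT8 was above KRT18 in every library. Per kilobase of principal transcript (2126 bases for KRT8, 1562 for KRT18) KRT18 lay below KRT8 in each DMSO library. It lay above KRT8 in each CA4 library, though in CA4 replicate 2 only at 7078 against 7019. With union exon lengths of 6881 and 3218 bases KRT18 would be above KRT8 in every library, so this order depends on the length chosen. The mean went from 1.59 ± 0.121 to 1.22 ± 0.122, a log2 difference of -0.38 (exact permutation test, two-sided, p = 0.1, which is the lowest value 3 against 3 libraries can reach). Leaving out 1 library at a time gave differences from -0.45 to -0.30. Because the genes overlap on opposite strands and the use of strand is not given in the sources used here, reads from the overlap could belong to either gene.

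**Figure D2:**
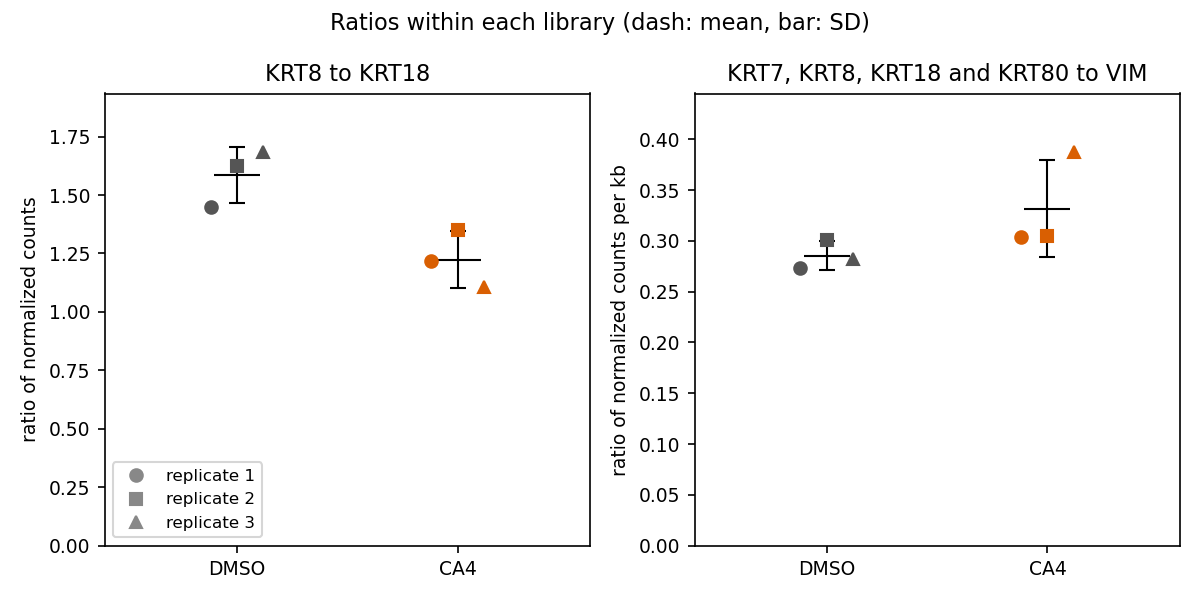
Left, ratio of KRT8 to KRT18 normalized counts in each library (y axis, from 0). Right, ratio of the summed keratins KRT7, KRT8, KRT18 and KRT80 to VIM, each per kilobase of principal transcript, with the dash as mean and the bar as SD of 3 libraries. The left ratio lies at 1.45 to 1.68 in DMSO and 1.11 to 1.35 in CA4, and on the right CA4 replicate 3 stands apart at 0.387.

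KRT7, another simple type II keratin, had 912, 830 and 912 normalized counts in DMSO and 879, 827 and 1120 in CA4. CA4 replicate 3 lay above the other 5 libraries, and those of the 2 groups were mixed. Its log2 fold change was 0.08 (SE 0.13, 95% interval -0.22 to 0.38, limma adjusted p = 0.766). Thus CA4 replicate 3 held the highest value of each of the 4 keratins among the 6 libraries.

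Vimentin itself had 117471, 97742 and 100186 normalized counts in DMSO and 117095, 109602 and 105142 with CA4. The groups overlapped, and replicate 1 was the highest in both. The log2 fold change of VIM was 0.08 (SE 0.10, 95% interval -0.17 to 0.32, limma adjusted p = 0.712). When libraries were brought to equal totals, VIM, KRT7 and KRT8 had log2 fold changes just below 0, so these 3 have no direction. That scaling moved the median of all tested genes to -0.11, and KRT80 kept its call under it with a log2 fold change of 0.46 (limma adjusted p = 0.0172).

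The 4 keratins per length, summed and divided by VIM per length, gave 0.273, 0.301 and 0.282 in DMSO and 0.303, 0.305 and 0.387 with CA4. The CA4 libraries were above the DMSO libraries, though 2 of them by a narrow margin. The mean went from 0.285 ± 0.0142 to 0.332 ± 0.0478, a log2 difference of 0.21 (exact permutation test, two-sided, p = 0.1, again the lowest possible). Without CA4 replicate 3 the log2 difference was 0.093.

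Synemin, encoded by SYNM, is a large co-polymer of vimentin and desmin that can link filaments to adhesion sites. SYNM had 398, 461 and 455 normalized counts in DMSO and 327, 324 and 367 in CA4. All CA4 libraries were below all DMSO libraries. The means were 438 ± 34.8 and 339 ± 23.8, and the log2 fold change of -0.37 (SE 0.12, 95% interval -0.64 to -0.09) did not pass over all genes (limma adjusted p = 0.122). SYNM was negative in each of 20 alternative fits, from -0.47 to -0.31, and passed in 0 of them. In GENCODE 29, 2027 of its exon bases are shared with an antisense gene that is not analysed here.

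Nestin, encoded by NES, is a co-polymer of vimentin found in progenitor and dividing cells. NES had 685, 223 and 268 normalized counts in DMSO and 526, 196 and 426 in CA4. It varied more within each group than between them, with a coefficient of variation of 65.1% in DMSO and 44.1% in CA4, against 1.92% and 2.11% for KRT80. Its log2 fold change was 0.04 (SE 0.49, 95% interval -1.11 to 1.18, limma adjusted p = 0.978), an interval that holds large changes in either direction. The mitotic kinase gene CDK1, on the list of filament kinases, had 548, 262 and 254 normalized counts in DMSO and 489, 277 and 148 in CA4. Like NES, CDK1 was highest in replicate 1 of each group, as were the mitotic kinase genes PLK1 and AURKB. In CA4 replicate 3, however, NES was high where CDK1 was lowest. The part of dividing cells in the NES values was not tested.

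**Figure D3:**
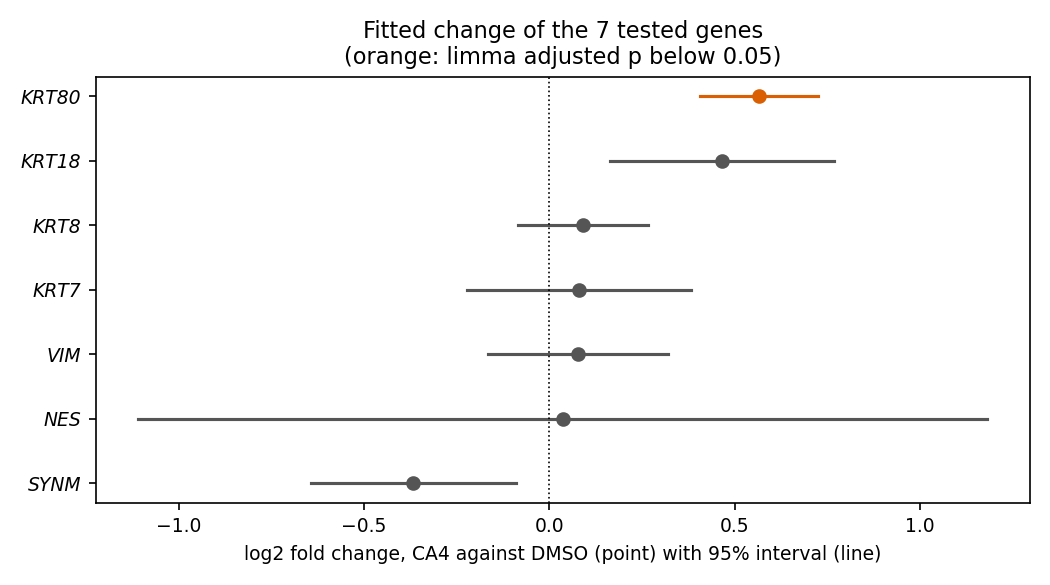
Log2 fold change of CA4 against DMSO from limma (x axis, point) with its 95% interval (line) for the 7 tested genes, with genes past an adjusted p of 0.05 in orange. KRT80 is the 1 gene in orange, the intervals of KRT18 and SYNM leave out 0 without passing over all genes, and that of NES reaches from -1.11 to 1.18.

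The 3 other members, proteins of neurons and astroglia, had few reads. NEFM (ENSG00000104722) and NEFL (ENSG00000277586) are neighbours on chromosome 8, at 24913012 to 24919098 and 24950955 to 24957110. NEFL, the light neurofilament chain, had 1, 3 and 6 reads in DMSO and 4, 2 and 3 in CA4. NEFM, the medium chain, had 1, 1 and 6 reads in DMSO and 8, 3 and 2 in CA4. GFAP had 8, 8 and 9 reads in DMSO and 14, 3 and 4 in CA4. None reached the mean of 10 normalized counts, the groups overlapped in all 3, and no direction was detectable at this depth. GFAP shares 2230 exon bases with CCDC103 on the opposite strand, a gene with 7.73 to 63.6 normalized counts, so the few GFAP reads may belong to either. Markers of the same cell types ranged widely. AQP4, S100B and ELAVL4 had at most 0.966, INA and PRPH at most 2.24, SLC1A3 at most 5.61 and STMN2 at most 6.77 normalized counts in any library, while SLC1A2 reached 10.3, RBFOX3 18.9, SYN1 27.9, ALDH1L1 83.6 and SNAP25 100.5. The 8 neuron markers summed to between 436 and 490 normalized counts in DMSO and between 576 and 644 in CA4, most of it MAP2, and the 6 astroglia markers to between 10994 and 14843 and between 12625 and 13849, most of it GJA1. Of these 2 lists, 0 of 3 and 0 of 2 tested genes passed, with 1 and 0 at an unadjusted p under 0.05 and 0 in both edgeR and DESeq2. MAP2 had a limma adjusted p of 0.0840, with its CA4 libraries at 497 to 519 above the DMSO libraries at 388 to 413. SNAP25 and ALDH1L1 had 46.8 ± 16.9 and 38.4 ± 13.5 normalized counts in DMSO and 71.2 ± 25.9 and 58.8 ± 23.9 in CA4, and GJA1 had 13432 ± 2159 and 13230 ± 609. MAP2 and SNAP25 had positive log2 fold changes, 0.35 and 0.60, and that of SNAP25 ran from 0.30 to 0.85 with 1 library left out. SYN1 had 1.09, with means of 5.36 and 15.3 normalized counts in overlapping groups (limma adjusted p = 0.406). SYN1 reached the mean of 10 only through its CA4 libraries, so its direction carries no weight here. The part of the neuron marker difference in the member values was not tested.

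Among the other cytoplasmic filament genes, 54 of the 57 listed were matched by symbol, 21 were abundant enough to test and 0 passed in limma. The list had 1 gene with an unadjusted p under 0.05, KRT10, which DESeq2 called and edgeR did not. KRT10, a type I keratin of differentiating epidermis, had 603, 459 and 499 normalized counts in DMSO and 739, 807 and 622 in CA4. Its CA4 libraries were all higher, and its log2 fold change of 0.47 (SE 0.15) had a limma adjusted p of 0.106. KRT86, a hair keratin, had 212, 230 and 241 in DMSO and 249, 277 and 289 in CA4, a log2 fold change of 0.25 (limma adjusted p = 0.298). KRT81, another hair keratin and a close paralog of KRT86, so that reads of the pair may be split uncertainly, was as abundant as some members, at 2251 ± 498 and 2531 ± 806 (log2 fold change 0.14, limma adjusted p = 0.790). KRT34, a hair keratin named after its values were seen, was under the filter and untested, with 0 reads in each DMSO library and 10, 5 and 16 in CA4.

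A block of 13 of these other keratins set the libraries apart in a way that did not follow the treatment. The block was picked after its values were seen and is described without a test. It holds KRT4, KRT5, KRT6A, KRT6B, KRT6C, KRT13, KRT14, KRT16, KRT17, KRT19, KRT33A, KRT76 and KRT85, for the most part keratins of stratified epithelia. Their summed normalized counts were 1481 and 1967 in replicates 1 and 2 of DMSO, 1869 and 2166 in replicates 2 and 3 of CA4, but 3.80 in DMSO replicate 3 and 18.4 in CA4 replicate 1. KRT13, the most abundant of them, had 663, 978 and 0.9496 in DMSO and 4.83, 804 and 1091 in CA4. Of the 11 squamous markers listed, IVL, SPRR1B and SPRR3 were at 0 in every library, and TP63 at 13.5 to 44.6 and DSC3 at 660 to 891 were present in all of them. The 11, of which 5 belong to the block, summed to 910 to 2418 normalized counts in DMSO and 738 to 2433 in CA4. In limma 0 of the 7 tested passed, 1 had an unadjusted p under 0.05, and edgeR and DESeq2 called 0. DSC3 had a log2 fold change of -0.27 (limma adjusted p = 0.160) and TP63 one of -0.53 (limma adjusted p = 0.514). That of TP63 ran from -0.78 to -0.21 with 1 library left out.

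**Figure D4:**
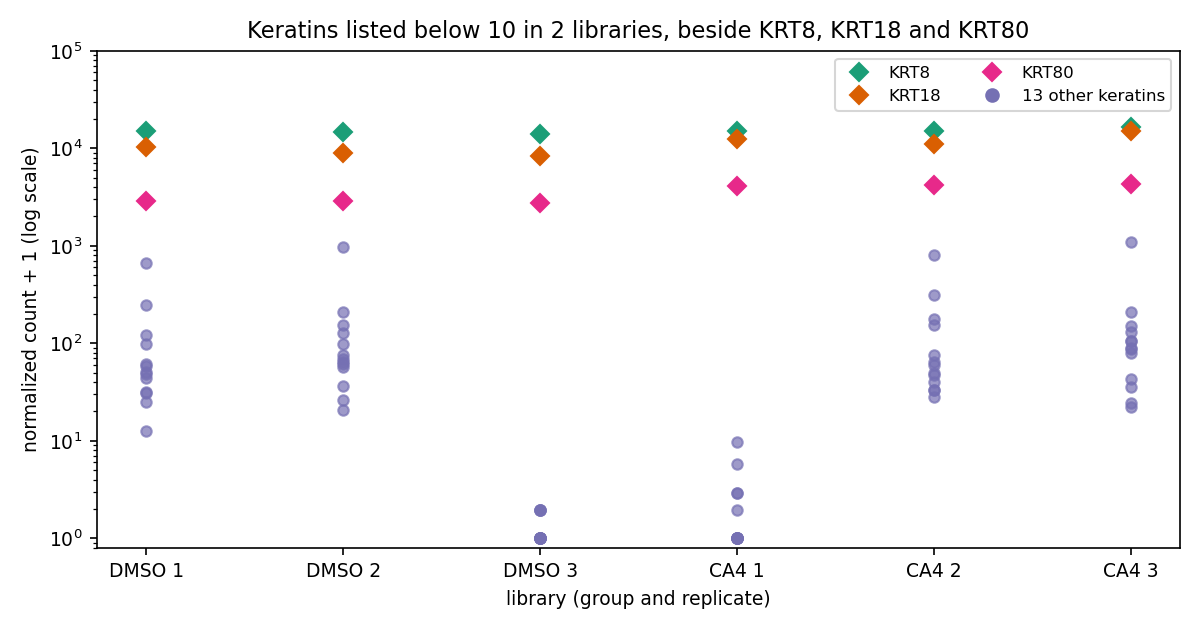
Normalized count + 1 on a log axis (y axis) in each of the 6 libraries (x axis), with 13 other keratins as purple circles and KRT8, KRT18 and KRT80 as diamonds. The circles lie below 10 in DMSO replicate 3 and CA4 replicate 1 and reach 1091 elsewhere, while KRT8 stays between 14118 and 16502 in all 6 libraries.

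KRT80 in the libraries low in these keratins, at 2765 in DMSO replicate 3 and 4095 in CA4 replicate 1, was the lowest of its group in each case, a few percent below the other libraries of that group. The part of the split in the KRT80 values was not tested. Without both of those libraries the log2 fold change of KRT80 was again 0.56, with a limma adjusted p of 0.136 from 2 libraries a group, and the KRT8 to KRT18 log2 difference was -0.33. KRT7 shares at most 0.411% of its 50-base words with any 1 of the KRT6 genes.

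Genes that anchor, modify, carry or fold filaments were read from lists of related genes, with counts from limma and the further calls of DESeq2 beside them. Over all tested genes limma called 4.94%, 2.97% higher and 1.97% lower, which is 688 genes, and DESeq2 called 1613. Of the cytolinkers and anchors, 2 of 10 tested rose and 0 fell in limma, with a list median of 0.018. These were EPPK1, a plakin that binds keratin filaments, with 89.8, 67.3 and 93.1 normalized counts in DMSO and 411, 413 and 558 in CA4 (log2 fold change 2.45, limma adjusted p = 0.00222), and DSP, desmoplakin, which ties keratin filaments to desmosomes. DSP had 19671, 12567 and 15720 normalized counts in DMSO and 38700, 28940 and 34269 in CA4, a log2 fold change of 1.101 (limma adjusted p = 0.0187). DESeq2 also called PPL, periplakin, lower, at 118, 175 and 177 normalized counts in DMSO and 45.4, 64.0 and 105 in CA4, groups that did not overlap (log2 fold change -1.18, limma adjusted p = 0.0842). Of the desmosome genes, JUP had a log2 fold change of -0.50 (limma adjusted p = 0.199) and PKP2 one of -0.43 (limma adjusted p = 0.222). PLEC, plectin, the broad linker of vimentin and keratin, had 23869 ± 1607 and 25546 ± 3563 (log2 fold change 0.09, limma adjusted p = 0.680).

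Of the 16 kinases and phosphatase subunits that act on filaments, 1 rose and 0 fell in limma, or 6.25% of the list and near the share over all genes, with a median of -0.055. It was PRKCA, protein kinase C alpha, which phosphorylates vimentin, at 3164 ± 164 against 4273 ± 300.0 normalized counts (log2 fold change 0.43, limma adjusted p = 0.0334). DESeq2 also called PAK1, a p21-activated kinase, lower, at 837 ± 133 and 566 ± 12.1 without overlap (log2 fold change -0.55, limma adjusted p = 0.0553). Among 13 chaperones and turnover factors 1 rose and 0 fell in limma, with a median of 0.11. DNAJB6, a co-chaperone of keratin filaments, had 3277, 3542 and 3440 normalized counts in DMSO and 4821, 5164 and 5315 in CA4, a log2 fold change of 0.58 close to that of KRT80 (limma adjusted p = 0.0119). DESeq2 also called HSPB1, a small heat shock protein gene, higher (log2 fold change 0.34, limma adjusted p = 0.0677) and KLHL24, a ubiquitin ligase adaptor for keratin 14, lower. KLHL24 had 312, 961 and 761 normalized counts in DMSO and 168, 298 and 263 in CA4, and its log2 fold change of -1.37 was the largest in size of the list (limma adjusted p = 0.103). Among 9 motor subunits and regulators 1 rose and 0 fell in limma, with a median of 0.11. NDEL1, a dynein regulator that also binds vimentin and neurofilament chains, went from 1496 ± 122 to 2466 ± 360 (log2 fold change 0.71, limma adjusted p = 0.0239). KIF5B, the kinesin heavy chain that carries vimentin, had 6345 ± 552 and 7713 ± 116 (limma adjusted p = 0.0919) and was called higher by DESeq2. DESeq2 also called DYNC1I2, a dynein intermediate chain, lower, at 3070 ± 40.5 and 2598 ± 112 without overlap (log2 fold change -0.24, limma adjusted p = 0.0991).

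On the list of genes of the mesenchymal and epithelial states, the 6 epithelial genes (CDH1, EPCAM, GRHL2, OVOL1, ESRP1 and ESRP2) were under the filter and untested. Of the 7 tested, which are the mesenchymal genes, 1 rose and 1 fell in limma, with a median of -0.43. CDH2, N-cadherin of mesenchymal cells, rose (12551 ± 273 against 15521 ± 265 normalized counts, log2 fold change 0.31, limma adjusted p = 0.0452), though edgeR gave an adjusted p of 0.0501. TWIST1, a transcription factor of the mesenchymal state, fell from 209 ± 14.5 to 119 ± 7.52 (log2 fold change -0.80, limma adjusted p = 0.0274). DESeq2 also called ZEB1 higher (log2 fold change 0.38, limma adjusted p = 0.0713) and SNAI1 and ZEB2 lower (log2 fold changes -0.46 and -0.60, limma adjusted p = 0.0879 and 0.0608), all 3 being transcription factors of the mesenchymal state. Of the 8 tested RPE markers 1 fell and 0 rose in limma, with 4 log2 fold changes above 0, 4 below and a median of 0.0086, though MERTK, among the 4 above, had a lower mean in CA4 (13.4 and 7.80 normalized counts). OTX2, a transcription factor of RPE identity, fell from 533 ± 104 to 244 ± 15.5 (log2 fold change -1.11, limma adjusted p = 0.0158). MITF, the other RPE factor, had 885 ± 239 and 457 ± 170 (limma adjusted p = 0.100) and was called lower by DESeq2.

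Apart from EPPK1, these limma calls were lost without single libraries, while their sizes kept close to the values above. With 1 library left out the log2 fold change ran from 0.94 to 1.26 for DSP, 0.55 to 0.62 for DNAJB6, 0.62 to 0.83 for NDEL1, 0.38 to 0.47 for PRKCA, 0.30 to 0.32 for CDH2, -0.86 to -0.76 for TWIST1 and -1.27 to -0.98 for OTX2. Without DMSO replicate 3 the other 7 genes missed the threshold, with limma adjusted p-values from 0.0612 for DNAJB6 to 0.154 for CDH2, and without CA4 replicate 3 they missed it with values from 0.0527 for DNAJB6 to 0.142 for CDH2. DSP, PRKCA, NDEL1, TWIST1, CDH2 and OTX2 also missed it without CA4 replicate 1, from 0.0598 to 0.143, and without DMSO replicate 2, from 0.0594 to 0.151. Without CA4 replicate 2, PRKCA had 0.0630 and CDH2 0.0899. The call of CDH2 was also lost when libraries were scaled to the same total, to the same 75th percentile or by quantiles, with adjusted p-values of 0.121, 0.0572 and 0.107, and that of PRKCA under total and quantile scaling, with 0.0708 and 0.0742.

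**Figure D5:**
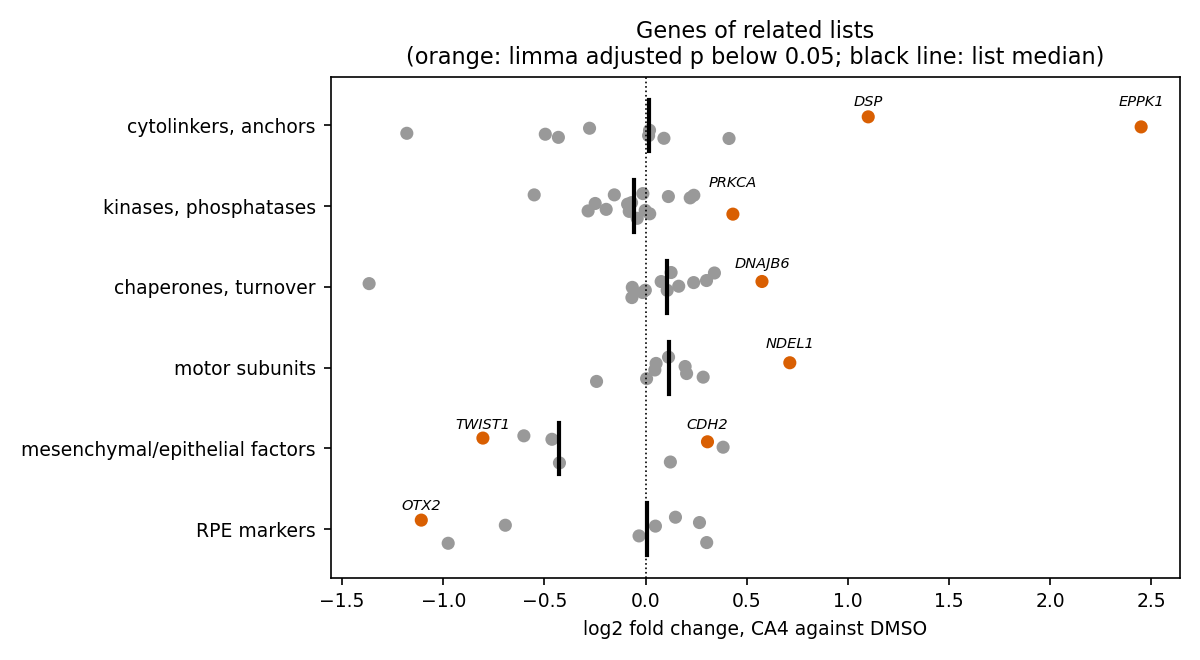
Log2 fold change of CA4 against DMSO (x axis) of the tested genes of 6 related lists (rows), 1 point per gene, orange where the limma adjusted p is below 0.05, with the list median as a black line. Of the orange points, EPPK1 at 2.45 and DSP at 1.101 stand at the right, and OTX2 at -1.11 and TWIST1 at -0.80 at the left. KLHL24 at -1.37 and PPL at -1.18, not past the threshold, lie further left. The medians of 5 of the 6 lists lie between -0.055 and 0.11.

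The genes whose values followed KRT80 most closely over the 6 libraries were, by Pearson correlation of log2 values, CDKN1A, DLGAP4, COPG1, PPP1R13L and KCTD20, with r between 0.996 and 0.999. The 6 points fall into the 2 treatment groups, so these r describe genes that part the groups as cleanly as KRT80 does, and 258 tested genes reached an r of at least 0.95. COPG1, a subunit of the COPI vesicle coat, had 5682, 5588 and 5564 normalized counts in DMSO and 7013, 6955 and 7170 in CA4.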

How the data were processed

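PolyA RNA of 6 hTERT RPE1 libraries was sequenced, 3 per group. The submitters' processing notes name Trim Galore 0.6.6, FastQC 0.12.1, STAR 2.7.9a, Salmon 1.8.0, DESeq2 1.44.0 and GRCh38. The deposited values are a signal, reads divided by 1 factor per library, called normalized counts. In each column 100% of values were whole multiples of 1 step within 0.01, which gave back whole reads. The annotation release and the use of strand are not given in the sources used here.

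The 13928 genes averaging 10 or more normalized counts were fitted on log2(normalized count + 1) with limma 3.58.1 in R 4.3.3, treatment as the only term, a variance trend and Benjamini-Hochberg adjustment over all tested genes. Fold changes are on this scale, which understates the change of low genes. Positions, lengths and 50-base words are from GENCODE 29, using the APPRIS principal transcript. Alternatives were other pseudocounts (0.1, 5), filters (none, 50), scalings, variance settings, a replicate block, each library left out, and edgeR 4.0.16 and DESeq2 1.42.0 on the recovered reads, where edgeR called 643 genes and DESeq2 1613 against 688 in limma. Read numbers cover counting error only, since reads are not independent molecules.

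Named genes are all 10 members, up to 3 called genes per list, or the 2 with the smallest p where none was called, and the 5 most like the leading member. Others (such as PLEC, KIF5B, CDK1, KRT13, JUP, PKP2, KRT81, marker genes and further DESeq2 calls) were added after their values were seen. The members and lists were chosen with earlier results of these data known. Some sequences are not reported here.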

Additional observations from a re-analysis of the deposited data

How the results depend on the processing

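KRT80 kept its direction in each of 20 alternatives, with log2 fold changes from 0.46 to 0.58, and passed in 17, with adjusted p-values from 3.4e-10 in DESeq2 to 0.136. It missed the threshold without the variance trend (limma adjusted p = 0.0565), without DMSO replicate 3, and without both DMSO replicate 3 and CA4 replicate 1. The number of members called, 1, became 2 in DESeq2 and with the replicate block, each time with KRT18 (adjusted p = 0.0133 and 0.038), 0 without the variance trend and 0 without those 2 libraries, and ran from 0 to 1 when 1 library was left out. The same-numbered libraries' deviations correlated at 0.202, 0.159 and 0.0588, not all above 0.1, and CA4 replicate 3 correlated best with DMSO replicate 2, so they were not treated as paired. With the block as a term, the exact test of the 3 paired differences gave p = 0.25 for both ratios, the smallest it allows, with log2 differences of -0.38 and 0.21 as before. With the replicate block, KRT10 and MAP2 also passed (adjusted p = 0.0485 and 0.0447).

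All genes called, 688, became 1613 in DESeq2, 2397 with the replicate block, 103 without the trend, 23 without moderation, 21 without those 2 libraries, and 84 to 994 when 1 library was left out. The related lists' called genes, 8 in all, became 19 in DESeq2, 22 with the block, 2 without the trend, 0 without moderation, 1 without those 2 libraries, and 1 to 13 with 1 library left out. Scaling to the same total made 34.8% of called genes higher in CA4 against 60.0%.

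Values near 0 changed sign. With the same total, VIM was -0.025, KRT7 -0.022, KRT8 -0.012 and NES -0.065. NES was -0.032 in DESeq2, -0.028 in edgeR and -0.43 without both libraries, and ran from -0.28 to 0.53 with 1 library left out, below 0 without DMSO replicate 2 (-0.28), DMSO replicate 3 (-0.15), CA4 replicate 1 (-0.25) or CA4 replicate 3 (-0.099). KRT7 ran from -0.052, without CA4 replicate 3, to 0.17. GJA1 was 0.027 without CA4 replicate 1, 0.068 without DMSO replicate 2, 0.054 without DMSO replicate 3 and 0.091 without both libraries. The ratios kept their sign in every alternative run. They ran from -0.45 to -0.30 and from 0.093 to 0.27 with 1 library left out, and the keratin to vimentin difference was 0.20 without length and 0.26 with union exon length, the latter chosen after seeing the data. Leaving out both libraries and adding pseudogene counts (KRT18 0.47, KRT8 0.088) were also chosen after seeing the data. The cause of these changes was not tested. Depth limits the reading of NEFL, NEFM and GFAP.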
